A study of Cavia porcellus with 72 samples.

Results

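GABA-A receptors are chloride channels built from 5 subunits, and they carry most of the fast inhibition in the brain. The alpha, beta, gamma and delta subunits of a receptor come from separate genes, and the set that is assembled decides where the channel sits and which drugs act on it: the usual synaptic form pairs alpha and beta subunits with a gamma subunit, while receptors with alpha5 or delta are known for tonic inhibition outside synapses. In the hippocampus alpha2 is abundant at synapses on pyramidal cells, alpha5 on their dendrites, and alpha4 with delta in the dentate gyrus.

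The genes described here were 7 listed subunit genes, GABRA2, GABRA3, GABRA4, GABRA5, GABRB1, GABRB2 and GABRG1, looked up by symbol in the count tables of 3 generations. The list was chosen by earlier results from these same libraries, in which GABRG1 stood out in F1 and GABRA2 in F3, so that for both of these generations the values of the listed genes are a description: where a gene is said there to have passed a threshold this is only counted, and it supports nothing. Of the 7, 6 were in all 3 tables and each of the 6 passed the filter on low counts in every generation; GABRB1, encoding the beta1 subunit, was not analysed here. They are 6 of the 11446 genes that the tables share. A further 3 subunit genes of the family, GABRG3, GABRD and GABRR1, are given beside them.

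The animals were female guinea pigs killed on postnatal day 40. F1 animals were the offspring of pregnant Dunkin-Hartley females (F0) that had received repeated courses of betamethasone, a synthetic glucocorticoid (sGC), or saline vehicle (control). F1 males were mated with females that had no treatment to give F2, and F2 males likewise to give F3, so that only the F1 animals of an sGC line met the drug themselves, as fetuses. Hippocampal RNA was sequenced for 6 control and 5 sGC animals in F1, 6 and 6 in F2, and 6 and 7 in F3. All animals came from independent mothers. RNA was extracted from a portion of the powdered right hippocampus, with its cell types mixed, so that fewer cells of one type and less RNA per cell cannot be told apart.

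Between 13507449 and 19767033 reads were counted per library. Library numbers in the labels ran with generation, so that generation and the order of the libraries cannot be told apart, and 5 sGC libraries (2 in F1, 1 in F2 and 2 in F3) carried the numbers 32 to 36, outside the run of their generation, with no control among them. The labelled tissue held hippocampal neuron markers such as PROX1 (median 111 CPM) and FIBCD1 (240 CPM) in every group, and 7 of 8 markers on that list were measured. Levels are given as counts per 1000000 reads (CPM), scaled by TMM over all 36 libraries, and are compared only within a gene, since transcript lengths were not used. Differences between sGC and control are log2 fold changes ± SE from a fit of each generation alone with edgeR's quasi-likelihood test, and a gene passed the threshold, or was called, where its p-value, adjusted by Benjamini-Hochberg over all genes tested, was under 0.05.

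GABRG1 encodes the gamma1 subunit, which is found in a small share of receptors and gives them a weak response to benzodiazepines. In F1 control animals its level was 14.77, 15.37, 12.34, 15.43, 14.08 and 13.9 CPM. In F1 sGC animals it was 22.97, 23.81, 21.31, 21.88 and 23.82 CPM. All 5 sGC animals lay above all 6 controls, and neither group spread by more than a few CPM. The mean was 14.3 ± 1.16 CPM (SD, n = 6) for control, 22.8 ± 1.13 CPM (SD, n = 5) for sGC, and the log2 fold change was 0.66 ± 0.07, a 1.58-fold higher level. Across all 11377 genes tested in F1, 2.08% were called in either direction, and 4.30% had groups that did not overlap. The number of genes called, 237, was unstable to single animals, from 56 without sGC replicate 5 to 342 without sGC replicate 4.

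GABRG1 rested on few reads, 212 to 299 in the F1 control libraries and 313 to 435 in the F1 sGC libraries. The F1 difference stayed between 0.62 and 0.69 when each animal was left out in turn, and it was 0.66 without the 2 sGC libraries numbered above 31.

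The other members of the list did not share the F1 difference. GABRA2 had 3 of 5 sGC animals above the control mean and GABRB2 and GABRA5 had 2 of 5 each, with log2 fold changes of 0.07 ± 0.09, 0.05 ± 0.06 and -0.01 ± 0.06. GABRA4 stood at -0.08 ± 0.06. GABRA3 was the widest, at -0.30 ± 0.15: its sGC animals measured 76.5, 46.3, 49.3, 39.6 and 47.4 CPM against 52.9 to 74.3 CPM (median 61.9) in control. A single sGC animal, replicate 1, was thus above every control, and the other 4 were below all 6. Without that animal the log2 fold change of GABRA3 was -0.48, and without the libraries numbered 32 to 36 it was -0.155. Over the 6 measured members, 1 passed in F1, and the median log2 fold change was 0.02 against -0.01 over all genes tested.

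**Figure D1:**
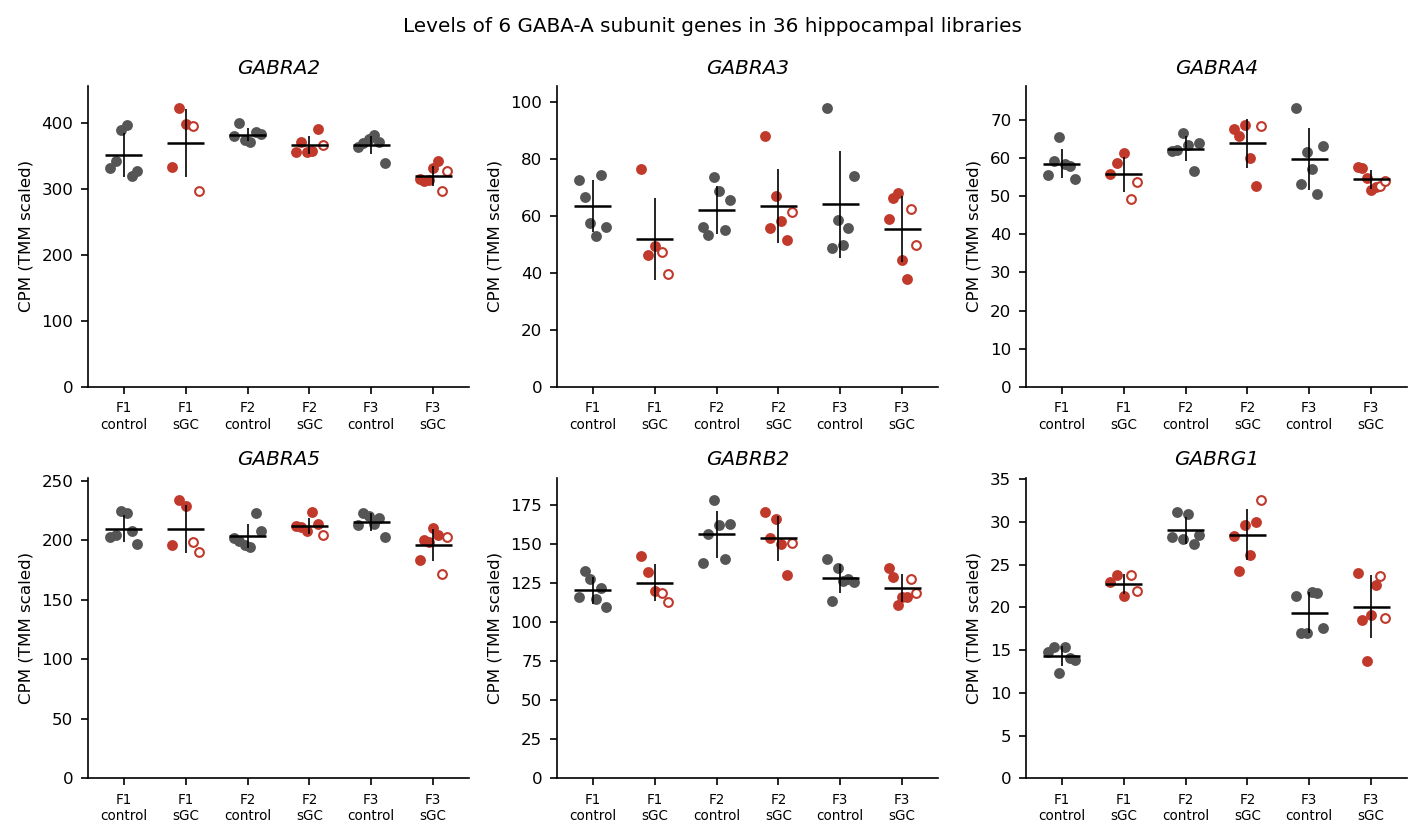
Levels of the 6 measured GABA-A subunit genes in CPM (vertical axes, from 0) for each library, by generation and treatment. Grey points are control and red points sGC animals, open points are the sGC libraries numbered 32 to 36, horizontal lines are group means and vertical lines ± 1 SD; GABRG1 in F1 sGC animals lies between 21.3 and 23.8 CPM, above F1 control animals (12.3 to 15.4) and below F2 control animals (27.4 to 31.2).

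The gap in GABRG1 was not seen in the later generations. F2 control animals had 28.27, 31.16, 27.98, 30.95, 27.42 and 28.46 CPM. F2 sGC animals had 24.23, 28.39, 29.71, 26.11, 30.02 and 32.61 CPM. The groups overlapped across nearly their whole range, and 3 of 6 sGC animals exceeded the mean of the controls. The F2 log2 fold change of -0.03 ± 0.06 did not pass (edgeR's quasi-likelihood test, adjusted p = 0.941), and its approximate 95% interval was -0.155 to 0.096.

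F3 control animals had GABRG1 levels of 21.32, 17.03, 17.04, 21.8, 21.73 and 17.56 CPM. F3 sGC animals ranged from 13.72 to 24.04 CPM, with a median of 19.1. The lowest and the highest F3 animals were both from the sGC group, and the log2 fold change was 0.05 ± 0.11.

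The sGC effect on GABRG1 was compared between generations in a fit over all 36 libraries. The F2 effect was lower than the F1 effect by 0.69 ± 0.13 on the log2 scale, and the F3 effect was lower than the F1 effect by 0.62 ± 0.13. Both differences contain the F1 values that put GABRG1 on the list, so that they are given as a description with no test. F3 and F2 effects on GABRG1 differed by 0.08 ± 0.13. As background, 0.299% of all genes tested passed for F2 against F1 (34 genes, and 0 to 219 with 1 animal left out, the lowest without F2 control replicate 2 or F2 sGC replicate 4 and the highest without F2 sGC replicate 6), and 0% passed for F3 against F1 in edgeR's quasi-likelihood test, with 1471 genes at an unadjusted p below 0.05, 56 called by the likelihood ratio test and 431 called without the libraries numbered 32 to 36.

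Control animals themselves differed in GABRG1 from one generation to the next. The F1 control animals also entered the F1 comparison that put GABRG1 on the list, so that their levels against the later generations are a description. Every F1 control animal lay below every F2 and F3 control animal. The level in F2 control animals was 2.03-fold that of F1, a log2 difference of 1.02 ± 0.07, and F3 was 1.36-fold F1, a difference of 0.44 ± 0.07. F3 was lower than F2 by a log2 difference of -0.58 ± 0.07. Many genes differed among the 3 control groups, 44.8% of 11311 tested, and 3.87% of genes had a larger difference between F2 and F1 than GABRG1. The F1 sGC animals, at 21.3 to 23.8 CPM, lay above all F1 controls and below all F2 controls, and they overlapped with F3 controls (17.03 to 21.8 CPM).

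The sGC libraries numbered 32 to 36 come from all 3 generations. GABRG1 was 23.8 and 21.9 CPM in those of F1, 32.6 CPM in the only 1 of F2, and 18.8 and 23.7 CPM in those of F3. The part of library order in these levels was not tested. All 3 oligodendrocyte precursor markers were measured, and their means are given here with libraries scaled within each generation. OLIG2 ran with generation in control animals, with means of 60.5, 236 and 57.89 CPM in F1, F2 and F3. PDGFRA (74.93, 88.01 and 74.01 CPM) and CSPG4 (15.77, 14.8 and 14.7 CPM) did not move with it to a like extent. With libraries scaled over all generations, the summed level had a median of 338 CPM in F2 against 159 CPM in F1 and 148 CPM in F3. The higher sum in F2 thus came mostly from OLIG2 and not from the list as a whole. The part of OLIG2 in the F2 level of GABRG1 was not tested.

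GABRB2, the beta2 subunit of the common synaptic receptor, was the other member whose level differed among the control groups (adjusted p = 4.13e-05). Its median was 119 CPM in F1, 159 CPM in F2 and 127 CPM in F3 control animals (n = 6 each, SD 8.73, 15.2 and 9.16 CPM). F2 controls (138 to 178 CPM) lay above F1 controls (109 to 133 CPM), with a log2 difference of 0.37 ± 0.06, while F1 and F3 overlapped and differed by 0.09 ± 0.06. Counting GABRG1, 2 of 6 members passed, both highest in F2, beside 44.8% of all genes.

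None of the 4 alpha subunit members passed this test, and their control groups overlapped. GABRA2 was 352 ± 33.4, 383 ± 10.1 and 367 ± 14.3 CPM in F1, F2 and F3 (edgeR's quasi-likelihood test, adjusted p = 0.0964). It came nearest of the 4, and it passed without F1 control replicate 3 or 4. GABRA5 was 210 ± 11.3, 204 ± 10.3 and 215 ± 7.41 CPM (adjusted p = 0.208). GABRA4 (adjusted p = 0.506) and GABRA3 (adjusted p = 0.962) did not pass either, so that no order of generations can be given for these 4 genes beyond their spread. All 3 of the other subunit genes passed this test, which 44.8% of all genes did: GABRD, the delta subunit of tonic receptors, was lower in F2 than in F1 by a log2 difference of -0.28 ± 0.05 (adjusted p = 0.000222), GABRG3, the gamma3 subunit, was higher in F2 by 0.24 ± 0.05 (adjusted p = 0.00118), and GABRR1, a rho subunit, was higher in F3 than in F2 by 0.53 ± 0.14 (adjusted p = 0.0132).

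The level of GABRG1 relative to GABRA2, its neighbour in the genome, does not depend on the scaling of libraries when read within each library. F1 control animals had 3.17 to 4.48 GABRG1 reads per 100 GABRA2 reads, and F1 sGC animals had 5.34 to 7.34, with no overlap. In F2 the ratio was 7.58 ± 0.42 for control and 7.78 ± 0.82 for sGC animals (SD, n = 6 each). The F3 controls averaged 5.28 ± 0.61 (SD, n = 6) and the F3 sGC animals 6.29 ± 1.24 (SD, n = 7), and these groups overlapped. Relative to GABRB2 the F1 groups were apart as well, with 9.7 to 13.5 GABRG1 reads per 100 GABRB2 reads in control and 16.2 to 20.1 in sGC animals.

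**Figure D2:**
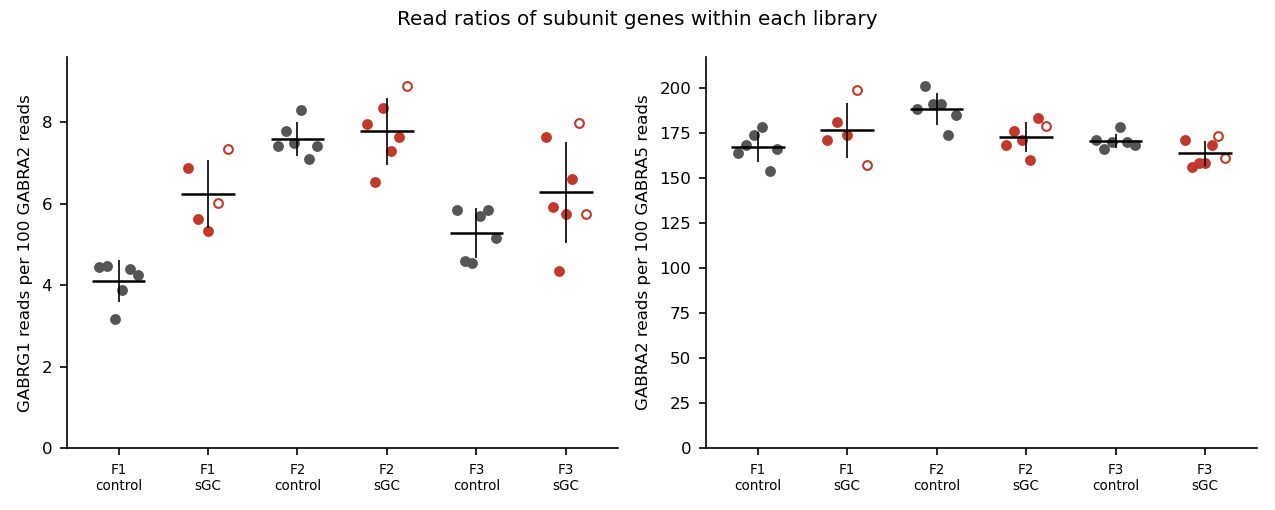
Reads of GABRG1 per 100 reads of GABRA2 (left) and of GABRA2 per 100 reads of GABRA5 (right) in each library, with axes from 0, grey control, red sGC, open points for libraries numbered 32 to 36, and lines for the mean ± 1 SD. GABRG1 per GABRA2 separates the F1 groups (3.17 to 4.48 against 5.34 to 7.34), while GABRA2 per GABRA5 overlaps between sGC and control in all 3 generations.

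In F2 no subunit gene was called between sGC and control animals. All 6 members had adjusted p-values between 0.744 and 0.969 by edgeR's quasi-likelihood method, and their median log2 fold change was 0.00. Across the genome 0% of 11414 genes passed in F2, 758 genes had an unadjusted p below 0.05, and none of these was a member; the likelihood ratio test called 6 genes and DESeq2 called 12, no member among them. The largest differences were small: GABRA2 was -0.06 ± 0.03, and 5 of its 6 sGC animals were below the control mean, and GABRA5 was 0.06 ± 0.04, with all 6 sGC animals above it. For GABRA5 these 6 animals measured 211, 212.2, 208.3, 223.7, 213.8 and 204.6 CPM, and the controls 202.2, 199.2, 196.4, 194.7, 222.7 and 207.9 CPM, so that 2 controls lay within the sGC range and the other 4 below it. Groups without overlap were seen for 0.412% of all genes in F2 and for no member.

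In F3 the pattern over the members was a different one, with 5 of 6 lower in sGC animals and a median log2 fold change of -0.14 against 0.00 over all genes tested. GABRA2 was the member counted as past the threshold, the result that had put it on the list. Its F3 control levels were 365, 370, 376, 382, 371 and 341 CPM, and in the 7 sGC animals they ran from 297 to 343 CPM with a median of 315. With libraries scaled within F3 all 7 sGC animals lay below the lowest control, though by little (337.4 against 337.9 CPM), and with libraries scaled over all generations 1 sGC animal lay above that control. The log2 fold change of GABRA2 was -0.20 ± 0.04, or 0.872-fold, and it stayed between -0.22 and -0.18 when each animal was left out. In F3, 5.04% of 11359 genes passed and 2.71% had groups that did not overlap; the 573 genes called became 288 to 639 with 1 animal left out, the lowest without sGC replicate 5.

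GABRA5 and GABRA4 were also lower in F3, and for both genes all 7 sGC animals lay below the control mean. GABRA5 had 213, 224, 220, 214, 219 and 203 CPM in control animals and from 172 to 210 CPM (median 200) in sGC animals, and the log2 fold change was -0.14 ± 0.04. GABRA4 ranged from 50.5 to 73.1 CPM (median 59.4) in control and from 51.8 to 57.8 CPM (median 54.03) in sGC animals, with a log2 fold change of -0.14 ± 0.07. GABRB2 stood at -0.07 ± 0.05. GABRA3 stood at -0.21 ± 0.16, and its value was -0.05 without F3 control replicate 1, which held the highest GABRA3 level of any library, 97.7 CPM.

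GABRA5 went in opposite directions in F2 and F3, with all 6 sGC animals above the control mean in F2 and all 7 below it in F3. The F3 effect on GABRA5 minus its F2 effect was -0.20 ± 0.07 on the log2 scale, and for GABRA2 the F3 effect was lower than the F1 effect by 0.27 ± 0.08. Both differences contain F3 values that were known when the list was drawn up and are given with no test. Between F3 and F2, 0% of all genes were called by edgeR's quasi-likelihood test and 1027 had an unadjusted p below 0.05.

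**Figure D3:**
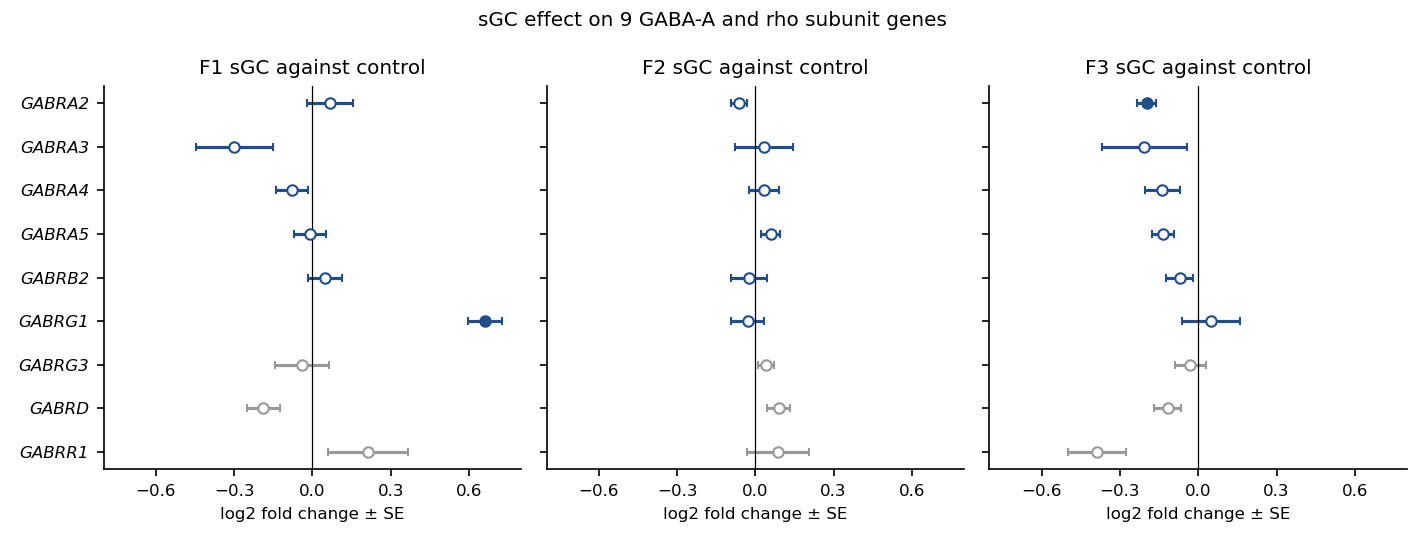
Log2 fold change of sGC against control (horizontal axis, ± SE) for 9 GABA-A and rho subunit genes in F1, F2 and F3. Blue marks the 6 listed genes that were measured, grey the other subunit genes, and filled points passed the threshold of 0.05: GABRG1 in F1 and GABRA2 in F3, where 8 of the 9 genes lie below 0.

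The other subunit genes were not on the list, and their F3 values stand beside the members. All 3 had a log2 fold change below 0 in F3 and none passed in edgeR's quasi-likelihood test. GABRR1 was the nearest to the threshold (-0.39 ± 0.11, adjusted p = 0.0519), with all 7 sGC animals below the mean of the controls, and GABRD (-0.12 ± 0.05, adjusted p = 0.205) and GABRG3 (-0.03 ± 0.06, adjusted p = 0.821) followed. GABRR1 rested on few reads, 66 to 118 in the F3 control libraries and 55 to 77 in the F3 sGC libraries. It was called in F3 by the likelihood ratio test, and without control replicate 1 or sGC replicate 7. The ratio of GABRA2 to GABRA5 reads overlapped between the F3 groups, with 170 ± 4.09 GABRA2 reads per 100 GABRA5 reads in control (SD, n = 6) and 164 ± 6.95 in sGC animals (SD, n = 7). In F1 and in F2 none of these 3 genes passed, and GABRD came nearest in F1 (-0.19 ± 0.06, adjusted p = 0.128), where all 5 sGC animals lay below the mean of the controls.

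Beyond the subunits, 32 further genes for the handling of GABA and its receptors were tested, in lists for receptor scaffolds and traffic, GABA-B receptors, GABA synthesis and transport, the chloride gradient and the neurosteroid site. Together with the 3 subunit genes, 0 of 35 passed in F1, 0 of 35 in F2 and 4 of 35 in F3, again beside 2.08%, 0% and 5.04% of all genes. In F1 the likelihood ratio test called 3 of them and DESeq2 called 5. These lists were chosen with earlier results of these data known, so that a gene past the threshold is only counted and supports nothing. In F3 both GABA-synthesizing enzymes fell: GAD1 by 0.24 ± 0.06 (edgeR's quasi-likelihood test, adjusted p = 0.0183) and GAD2 by 0.20 ± 0.04 (adjusted p = 0.0116), and for both the 7 sGC animals all lay below the control mean. UBQLN1, a ubiquitin-like protein known to stabilise GABA-A subunits, fell by 0.13 ± 0.03 (adjusted p = 0.0103), with every sGC animal below every control. TRAK1, an adaptor for kinesin transport of cargo that includes these receptors, rose by 0.18 ± 0.04 (adjusted p = 0.0151), with all 7 sGC animals above the control mean. SLC32A1, the vesicular GABA transporter, lay at the threshold in F3 (-0.25 ± 0.07, adjusted p = 0.0501), with all 7 sGC animals below the control mean, and it was called by the likelihood ratio test, by DESeq2 and without the libraries numbered 32 to 36. The GABA-B receptor genes and the chloride transporter list had no gene past the threshold in any generation in this test. GAD1 and GAD2 are also on a candidate list the study drew up beforehand. The study reported both as lower in F3 from these same libraries, so that their values here are not a separate finding. It also measured GAD1 by qRT-PCR.

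Astrocyte markers moved with the F3 groups. All 9 markers on that list were measured, all 9 had a higher level in F3 sGC animals, and 4 passed, beside 5.04% of all genes. Their summed level was 9580 to 10500 CPM in control and 10800 to 12400 CPM in sGC animals, which did not overlap. Taken singly, each of the 9 astrocyte markers overlapped between these groups. The hippocampal neuron sum overlapped between the same groups (843 to 916 against 779 to 922 CPM), as did the interneuron sum (292 to 400 against 306 to 358 CPM). On both of these neuron lists 6 of the 7 measured markers were lower in F3 sGC animals and 1 was higher, none past the threshold. Astrocytes were not the only list that moved to 1 side in F3. All measured markers of meningeal fibroblasts (6), microglia (4), endothelium (4) and oligodendrocyte precursors (3) were higher too, none past the threshold. The part of any of these lists in the lower subunit levels of F3 was not tested. In F1, all 9 astrocyte markers were higher as well, 1 of them past the threshold, and the sums overlapped (8680 to 11400 against 10000 to 16400 CPM). All 7 measured interneuron markers were lower, 1 past the threshold (316 to 406 against 277 to 328 CPM). All 6 meningeal fibroblast markers were lower, 2 past the threshold (84.3 to 233 against 55.3 to 114 CPM). The 4 measured microglia markers were all higher, and the measured oligodendrocyte (3) and choroid plexus (2) markers were all lower, none past the threshold. Of all genes tested in F1, 2.08% were called. The other F1 lists held markers of both signs. The part of these lists in the F1 level of GABRG1 was not tested. In F2, no gene on any of the 12 marker lists passed.

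Among animals of the same group, the members varied to very different degrees. GABRA3 had a within-group SD of 0.30 on the log2 scale, larger than in 99.5% of the 4305 genes within a factor of 2 of its level, while GABRA5 (0.0853) and GABRA2 (0.105) lay above 60.8% and 78% of the genes of like level. GABRG1 had an SD of 0.17, above 86.8% of genes of like level, and GABRA4 and GABRB2 had 0.12 each, above 84.1% and 88% of theirs.

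With group means removed, several of the subunit genes rose and fell together from animal to animal. The values are Pearson's r over the 36 libraries, which share their scaling, dissection and sequencing, and are given as a description. GABRA2 and GABRA5 went together, with an r of 0.71. GABRA3, GABRA4 and GABRB2 went with each other and with GABRD, with r from 0.43 to 0.64, the highest being that of GABRA4 with GABRB2. GABRA2 and GABRA3 had an r of -0.40. GABRG3 ran with GABRA3 (0.54) and against GABRA2 (-0.58) and GABRA5 (-0.50), with 0.13 for GABRA4, and GABRR1 had values from -0.36 to 0.32. GABRG1 went with none of them, with r between -0.32 and 0.26 for all 8 other subunit genes, and its r with GABRA2 was 0.07, although both genes lie beside each other in a cluster with GABRA4 and GABRB1 in the RefSeq annotation of the guinea pig assembly.

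**Figure D4:**
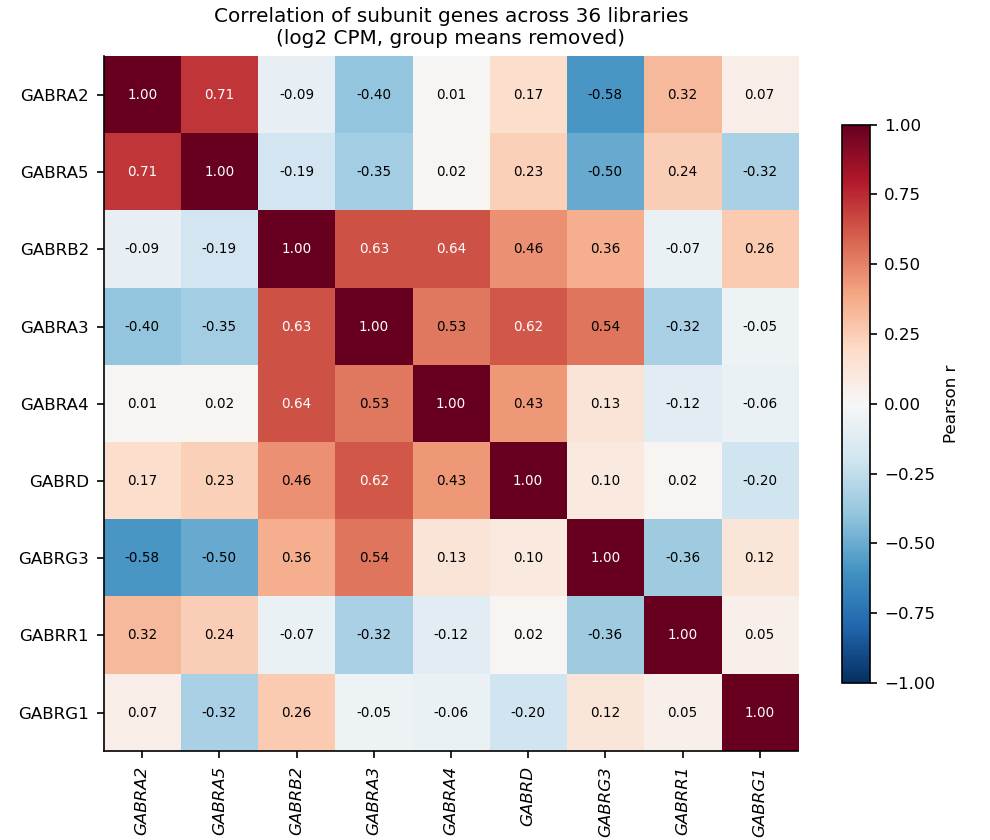
Pearson's r between 9 GABA-A and rho subunit genes across 36 libraries, from log2 CPM with the mean of each generation and treatment group removed (color scale and cell values, -1 to 1). The pair GABRA2 and GABRA5 (0.71) and the genes GABRB2, GABRA3, GABRA4 and GABRD (0.43 to 0.64) run together, GABRG3 runs against GABRA2 (-0.58), and GABRG1 has values between -0.32 and 0.26.

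The genes most like each member, by the same measure and among 11157 genes, differed accordingly. For GABRA2 they were ENC1 (r = 0.88), SCN3B (0.87) and KLHL2 (0.87). For GABRA5 they were PPP3CA (0.87), FAM131A (0.84) and SCN3B (0.82), and for GABRB2 DCLK1 (0.83), EPHA5 (0.80) and LRRC8B (0.79). For GABRA3 they were FXYD6 (0.90), NGEF (0.87) and KCNF1 (0.86). GABRA4 had lower values, led by DLG1 (0.70). GABRG1 was closest to ZFHX4 (0.73), ZC3H14 (0.72) and PCM1 (0.68). ZFHX4, a zinc finger and homeobox gene, had a mean of 7.31 CPM in F1 control and 11.0 CPM in F1 sGC animals with libraries scaled within F1, and rose there by 0.58 ± 0.07 (edgeR's quasi-likelihood test, adjusted p = 0.00212). As background, 2.08% of all genes tested in F1 were called. ZFHX4 in F2 and F3, and the other genes of this paragraph in any generation, are given no such comparison. The F1 value of ZFHX4 is therefore a description, and a response shared with GABRG1 was not tested.

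Summed levels of cell type markers also ran with the members from animal to animal. GABRA3 went with interneuron markers (r = 0.75), thalamic markers (0.69) and striatal markers (0.60), while GABRA5 went with hippocampal neuron markers (0.77) and against thalamic (-0.66) and meningeal fibroblast markers (-0.64). GABRA2 had r of -0.63 with thalamic and 0.46 with hippocampal neuron markers. Such sums can follow 1 variable marker more than the rest of a list. Of the interneuron markers, CALB2 had the largest SE between sGC and control in F1, F2 and F3 (0.272, 0.195 and 0.305). The r of single markers was not computed. The thalamic sum was low in all groups, from 41.2 to 74.5 CPM over 4 of 4 markers measured, and the striatal sum was 84.2 to 117 CPM over 5 of 6. GABRG1 stayed between -0.24 and 0.29 for all 12 lists, the highest being that of oligodendrocyte precursors. What these sums contribute to the levels of GABRA3 and GABRA5 was not tested.

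**Figure D5:**
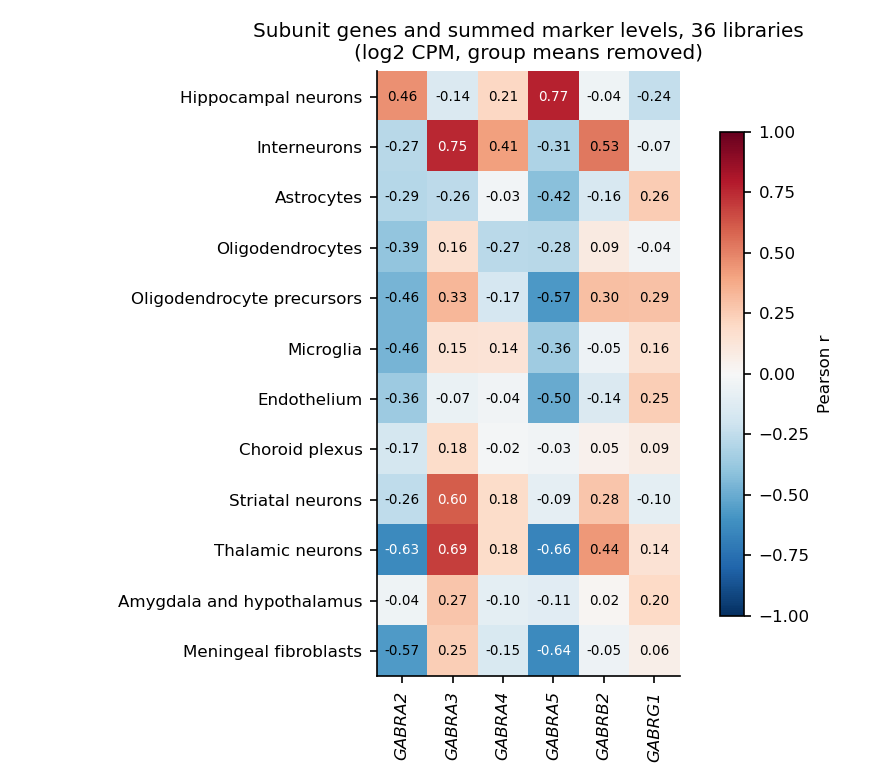
Pearson's r of the 6 measured members (columns) with the summed level of each cell type marker list (rows) across 36 libraries, from log2 CPM with group means removed (color scale and cell values, -1 to 1). GABRA3 runs with interneuron (0.75) and thalamic (0.69) markers, GABRA5 with hippocampal neuron markers (0.77), and GABRG1 lies between -0.24 and 0.29 throughout.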

How the data were processed

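RNA-seq libraries of hippocampal mRNA were sequenced by the study as single-end reads. The count tables, 1 per generation, were deposited as raw numbers of reads on each gene, with no normalization; the aligner named in the submitters' processing notes is TopHat2, and the genome build of the counts is not given in the sources used here. The same tables hold the authors' own comparison (log2 fold change, p-value, FDR and related columns from edgeR), which was not used. The methylation tables hold only the authors' differences between groups with p- and q-values from methylKit 1.4.0, and were not used.

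Samples were grouped by their labels. Tests were run in R 4.3.3 with edgeR 4.0.16 and limma 3.58.1 (TMM, filterByExpr, quasi-likelihood test, Benjamini-Hochberg, threshold 0.05), each generation alone; control groups and interactions were fitted on the 11446 shared genes. DESeq2 1.42.0, the likelihood ratio test that the study used, other scaling, no filter, all generations together, a replicate block, leaving out libraries 32 to 36 and leaving out each animal were alternatives. The fits were tested on simulated data. Figures used Python 3.11.15 and matplotlib 3.10.9.

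Members and gene lists were chosen with earlier results of these data known. All members are named in each contrast, other GABA genes where they passed (at most 8 by smallest adjusted p), and the 3 genes most like each member. The approximate 95% interval is for the mean difference between sGC and control, from the SE of the fit, and is not a range that holds the animals. Gene order came from the RefSeq assembly mCavPor4.1, and no sequence or coordinate was used. Some genes of the family are not reported here and are left out of the lists and counts of GABA genes.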

Additional observations from a re-analysis of the deposited data

Results flagged for a closer look

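For GABRG1 the F2 effect of sGC minus the F1 effect was -0.692 on the log2 scale, with 5 of 5 F1 sGC animals above the control mean and 3 of 6 in F2. It is listed because the effects differed between generations in the fit over all libraries, but the F1 values in this contrast had put GABRG1 on the list, so that its test is no evidence, and it was not past the threshold without F2 control replicate 2 or without F2 sGC replicate 4.

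GABRA3 in the F1 sGC group is flagged because 1 animal, replicate 1, stood at 76.5 CPM while the other 4 lay between 39.6 and 49.3 CPM, a gap larger than Dixon's criterion allows for 5 samples. All 6 members were looked at in all 6 groups, and chance flags about 1 in 20 such groups.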

How the results depend on the processing

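The counts of members past the threshold were 1 in F1, 0 in F2 and 1 in F3. They held under all the other settings except that DESeq2 gave 2 in F3 (with GABRA5), and leaving out 1 animal gave 1 to 2 in F1 (2 without sGC replicate 1, with GABRA3). Members differing among control groups were 2, or 2 to 3 with 1 control animal left out (3 without F1 control replicate 3 or 4, with GABRA2). Members whose effect differed between generations, in contrasts that reuse the values behind the list, were 1, 2 without libraries 32 to 36, and 0 to 2 with 1 animal left out (0 without F2 control replicate 2 or F2 sGC replicate 4, 2 without F1 sGC replicate 4). Other GABA genes past the threshold in F1 were 0, but 3 by the likelihood ratio test, 5 by DESeq2, 8 with all generations together, and 0 to 4 with 1 animal left out (4 without sGC replicate 4). In F3 they were 4, but 7 by the likelihood ratio test, 6 by DESeq2, 1 with the replicate block, and 4 to 6 with 1 animal left out (6 without control replicate 1). The causes were not tested.

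Same-numbered control and sGC animals showed no steady common deviation (r from -0.305 to 0.313 over 17 pairs, 3 above 0.1). The labels do not say whether the replicate numbers pair animals, and these values cannot exclude it. With the replicate block, the F3 calls of GAD1, GAD2 and UBQLN1 were lost, GABRG1 in F1 (0.66) and GABRA2 in F3 (-0.21) were still past the threshold, and the counts of all genes called went from 237 to 72 in F1 and from 573 to 70 higher and 101 lower in F3. The likelihood ratio test called 598 and 788, DESeq2 652 and 944, the fit of all generations together 851 and 385, and the fit without libraries 32 to 36 97 and 317. With 1 animal left out they were 56 (without sGC replicate 5) to 342 (without sGC replicate 4) in F1 and 288 (without sGC replicate 5) to 639 in F3. The TRAK1 call in F3 was lost with all generations together (adjusted p = 0.0504).

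Small effects that never passed changed sign: GABRA5 in F1 (0.0617 without libraries 32 to 36, and 0.00874 to 0.0274 without control replicate 3 or 4 or sGC replicate 1, 4 or 5, among -0.054 to 0.0274 over all animals left out), GABRB2 in F1 (-0.00127 to 0.0862), and in F2 GABRA3 (-0.0816 to 0.089), GABRB2 (-0.057 to 0.0193) and GABRG1 (-0.072 to 0.0142). GABRG1 has the fewest reads of the members, 202 to 516 per library, which limits its precision.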
